A study of Mus musculus with 21 samples.

Results

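Making a ribosome requires a large set of nucleolar proteins that transcribe, cut, modify and fold ribosomal RNA, and 53 genes of this kind were followed here through the response of CD4+ T cells to a peptide antigen. The genes are a list of names drawn up with earlier results of these data known and with no threshold on a measured value. All 53 were found by symbol among the 15249 genes of the deposited named expression table and, by identifier, among the 47643 genes of the deposited count table. All 53 passed the filter on low counts (at least 10 reads over all samples) and had an adjusted p in every comparison below. They were split into 6 roles, with 6 genes of RNA polymerase I (Pol I) and ribosomal DNA transcription, 4 nucleolar scaffold and chaperone genes, 4 box C/D and 4 box H/ACA genes, 16 genes of small subunit assembly and 19 of large subunit assembly.

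The study asked how the strength of a T cell receptor signal, set by antigen dose, shapes the transcription of responding CD4+ T cells over time. All mice, controls included, were of the strain labelled Tg4 Tiger Nr4a3-Tocky: they carried the Tg4 T cell receptor transgene specific for a myelin basic protein peptide, the Il10-GFP reporter, and the Nr4a3-Tocky transgene, in which the Nr4a3 gene drives a fluorescent Timer protein that turns from blue to red. Libraries came from an untreated control group and from mice given 0.8 µg or 80 µg of the [4Y] myelin basic protein peptide under the skin, without adjuvant, and taken at 4, 12 or 24 h, which gave 7 groups of 3 libraries. Splenic CD4+ T cells were sorted on the Timer protein. Cells with the blue form alone (Blue+Red-) were taken at 4 h, those with both forms (Blue+Red+) at 12 h, and those in which the red form was left (Blue-Red+) at 24 h. The gate therefore changed with time, and time and gate cannot be told apart in any comparison between time points. The gate of the control cells and the age of the mice are not given in the sources used here. According to the study's methods replicate mice were stained individually before sorting, so the libraries of a group were taken as separate mice.

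Ribosome production begins in the nucleolus, where Pol I copies the ribosomal DNA into a long precursor RNA. Small nucleolar RNPs then modify it, the box C/D particles by methylation and the box H/ACA particles by pseudouridylation, while separate sets of assembly factors build the small and the large subunit and are released before export. Resting lymphocytes have small nucleoli and grow before they divide, and ribosome biogenesis is a well known part of that growth, with Myc among the known activators of its genes.

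The libraries held between 2352800 and 6244279 counts, and the transcript Gm42418 alone took 17.0 to 27.8% of the counts of a library. The cells carried the RNA of their labelled type: the summed level of 10 CD4+ T cell markers was 4148 to 4394 CPM (counts scaled to a common library total) in the controls, 2152 to 2496 at 4 h, 1799 to 2241 at 12 h and 3508 to 4061 at 24 h. The summed level of 8 B cell markers was 406 to 474 CPM in the controls, 44.3 to 88.8 at 4 h, 38.6 to 104 at 12 h and 294 to 413 at 24 h, mostly from Ighm, while the B cell gene Cd79a was at 0 in 17 of 21 libraries. Summed myeloid markers reached 67.8 CPM at most, CD8 T and NK markers 76.6 and erythroid markers 212. From control to 4 h and from 12 to 24 h both the T cell and the B cell marker sums moved in the opposite direction to the genes described here. From 4 to 12 h the T cell sum fell with them at 0.8 µg (2343 to 2496 CPM, then 1799 to 1905), and the B cell sums overlapped at both doses. Over the same step the CD8 T and NK marker sum at 0.8 µg was higher at 12 h (66.8 to 76.1 CPM) than at 4 h (16.6 to 32.4), while at 80 µg it overlapped (26.5 to 57.2, then 20.6 to 33.7). The part of such cells in the results was not tested. In bulk RNA of this kind fewer cells that express a gene and less of its RNA per cell cannot be told apart.

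The promoters are shown first because the 53 genes moved together. The canonical E-box, the letters CACGTG, is the site that Myc and its partner Max are known to bind, and it reads the same on both strands. It was searched in the RefSeq promoter windows of the GRCm38.p6 build, from 250 bases before to 50 bases after each annotated start. A window was at hand for 47 of the 53 genes, and no window was at hand for Npm1, Fbl, Fcf1, Rrp12, Bop1 and Rrs1. The letters were found in 10 of these 47 genes (21.3%), against 8.09% of the 27025 genes with a window and 11.8% of the 9912 genes of the named expression table with a window. Among other lists the share was 25.7% in other small subunit factors (9 of 35), 20.0% in other large subunit factors (8 of 40), 16.7% in other Pol I factors (2 of 12), 14.3% in genes of the RNA exosome and precursor decay (2 of 14) and 0% in snoRNP assembly factors (0 of 9). It was 33.3% in translation initiation and elongation factors (9 of 27) and 9.84% in cytosolic ribosomal proteins (6 of 61). A match is a description of the letters and not evidence of binding. Stretches of 30 bases around the 10 matches are given 5′ to 3′ on the strand of the gene, with the E-box in capitals.
Imp4: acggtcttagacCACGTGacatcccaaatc
Nop2: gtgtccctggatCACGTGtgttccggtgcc
Grwd1: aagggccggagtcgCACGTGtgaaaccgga
Ltv1: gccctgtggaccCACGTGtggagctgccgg
Utp20: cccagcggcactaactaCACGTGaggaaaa
Pes1: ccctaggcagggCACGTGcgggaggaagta
Mybbp1a: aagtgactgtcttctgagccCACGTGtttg
Tsr1: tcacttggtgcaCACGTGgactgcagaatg
Nle1: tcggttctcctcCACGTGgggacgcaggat
Wdr43: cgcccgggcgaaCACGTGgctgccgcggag

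These stretches lie at chr1:34439696-34439725 on the plus strand for Imp4, chr6:125131811-125131840 on the plus strand for Nop2, chr7:45830740-45830769 on the minus strand for Grwd1, chr10:13193092-13193121 on the minus strand for Ltv1 and chr10:88826765-88826794 on the minus strand for Utp20. The stretch of Pes1 lies at chr11:3963965-3963994 on the plus strand, that of Mybbp1a at chr11:72441347-72441376 on the plus strand, that of Tsr1 at chr11:74898092-74898121 on the plus strand, that of Nle1 at chr11:82908355-82908384 on the minus strand and that of Wdr43 at chr17:71616220-71616249 on the plus strand. The E-box began 121 bases before the annotated start in Imp4 and 60 bases before it in Nop2, while in the other 8 genes it lay at or after the start, within the first transcribed bases. The RNA of the 10 genes with the letters was set beside that of the 37 without. Against control at 4 h the median log2 fold change was 2.86 with and 2.74 without the letters at 0.8 µg, and 2.82 with and 2.94 without at 80 µg. At 12 h it was 2.21 with and 2.56 without at 0.8 µg, and 2.13 with and 2.48 without at 80 µg. At 24 h it was 0.55 with and 0.53 without at 0.8 µg, and 0.23 with and 0.46 without at 80 µg, a description without a test.

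The first comparison asked how far antigen raised these genes above the untreated level. Together the 53 genes took 0.427% ± 0.0137 (SD, n = 3) of all counts in the control libraries. This share was 3.12% ± 0.05 at 4 h after 0.8 µg and 3.16% ± 0.0509 at 4 h after 80 µg, then 2.85% ± 0.115 and 2.77% ± 0.0224 at 12 h, and 0.838% ± 0.0848 and 0.698% ± 0.0365 at 24 h (n = 3 each). The lowest 4 h library was at 3.09% and the highest control library at 0.438%, so the groups lay far apart, while the 2 doses overlapped at 4 h. At 24 h every library, from 0.656% to 0.913%, was still above the controls, and all 3 libraries of 80 µg (0.656 to 0.720%) were below all 3 of 0.8 µg (0.746 to 0.913%). With Ncl and Npm1 left out of the sum the doses overlapped at 24 h (0.320 to 0.370% at 80 µg, 0.368 to 0.449% at 0.8 µg). They also overlapped without Gm42418, mt-Rnr1 and mt-Rnr2 in the library total (0.987 to 1.10% at 80 µg, 1.08 to 1.38% at 0.8 µg). The list of 86 cytosolic ribosomal protein genes was drawn by name, and it also holds relatives named after them, such as Rpl7l1 and Rps27l. Ribosomal proteins are the building blocks that biogenesis factors assemble. The genes of this list did not follow the 53: they took 5.97 to 7.92% of the counts over all 21 libraries.

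**Figure D1:**
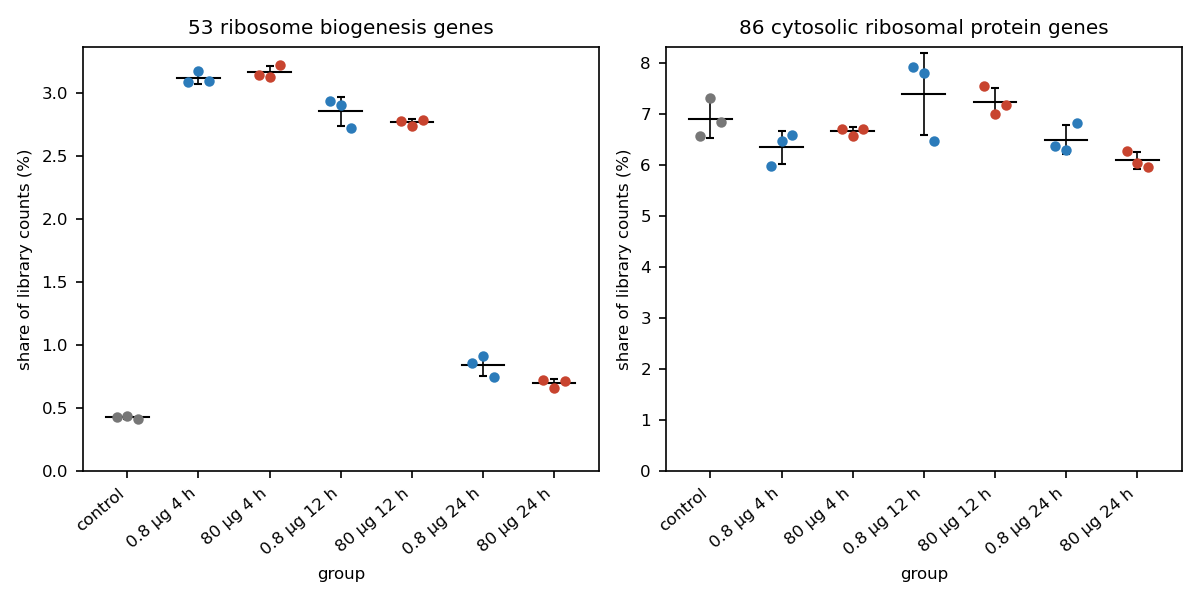
Share of each library's counts (%, y axis, from 0) taken by the 53 ribosome biogenesis genes and by the 86 cytosolic ribosomal protein genes in the 7 groups (x axis); points are libraries, horizontal lines group means and whiskers the SD (n = 3). The biogenesis genes rose from 0.427% in control to above 3% at 4 h at both doses, and the ribosomal protein genes stayed between 5.97 and 7.92%.

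At 4 h all 53 genes were called higher than control at both doses. A gene was called when DESeq2's Wald test gave a Benjamini-Hochberg adjusted p under 0.05 and the absolute shrunken log2 fold change was above 1, and in this direction 17.3% of all genes tested were called at 0.8 µg and 18.4% at 80 µg. The median log2 fold change of the 53 genes was 2.74 at 0.8 µg and 2.85 at 80 µg, against -0.13 and -0.15 over all genes tested. The smallest change was that of Fcf1, a nuclease-like factor of small subunit processing (1.44 and 1.5), and the largest that of Rrp1b, a nucleolar protein of large subunit processing (3.78 and 3.94). The 4 h libraries were all above the control libraries for each of the 53 genes, against 28.6% and 29.4% of all genes at 0.8 and 80 µg. At 12 h 51 genes were called higher at 0.8 µg and 52 at 80 µg, where 17.2% and 17.8% of all genes tested were. The exceptions were Ddx10, an RNA helicase of small subunit assembly (log2 fold changes of 0.99 and 0.87), at both doses and Polr1a, the largest subunit of Pol I (0.99 at 0.8 µg, 1.10 at 80 µg), at the low dose. Both lay just under the fold threshold, and their 12 h libraries were all above the controls.

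**Figure D2:**
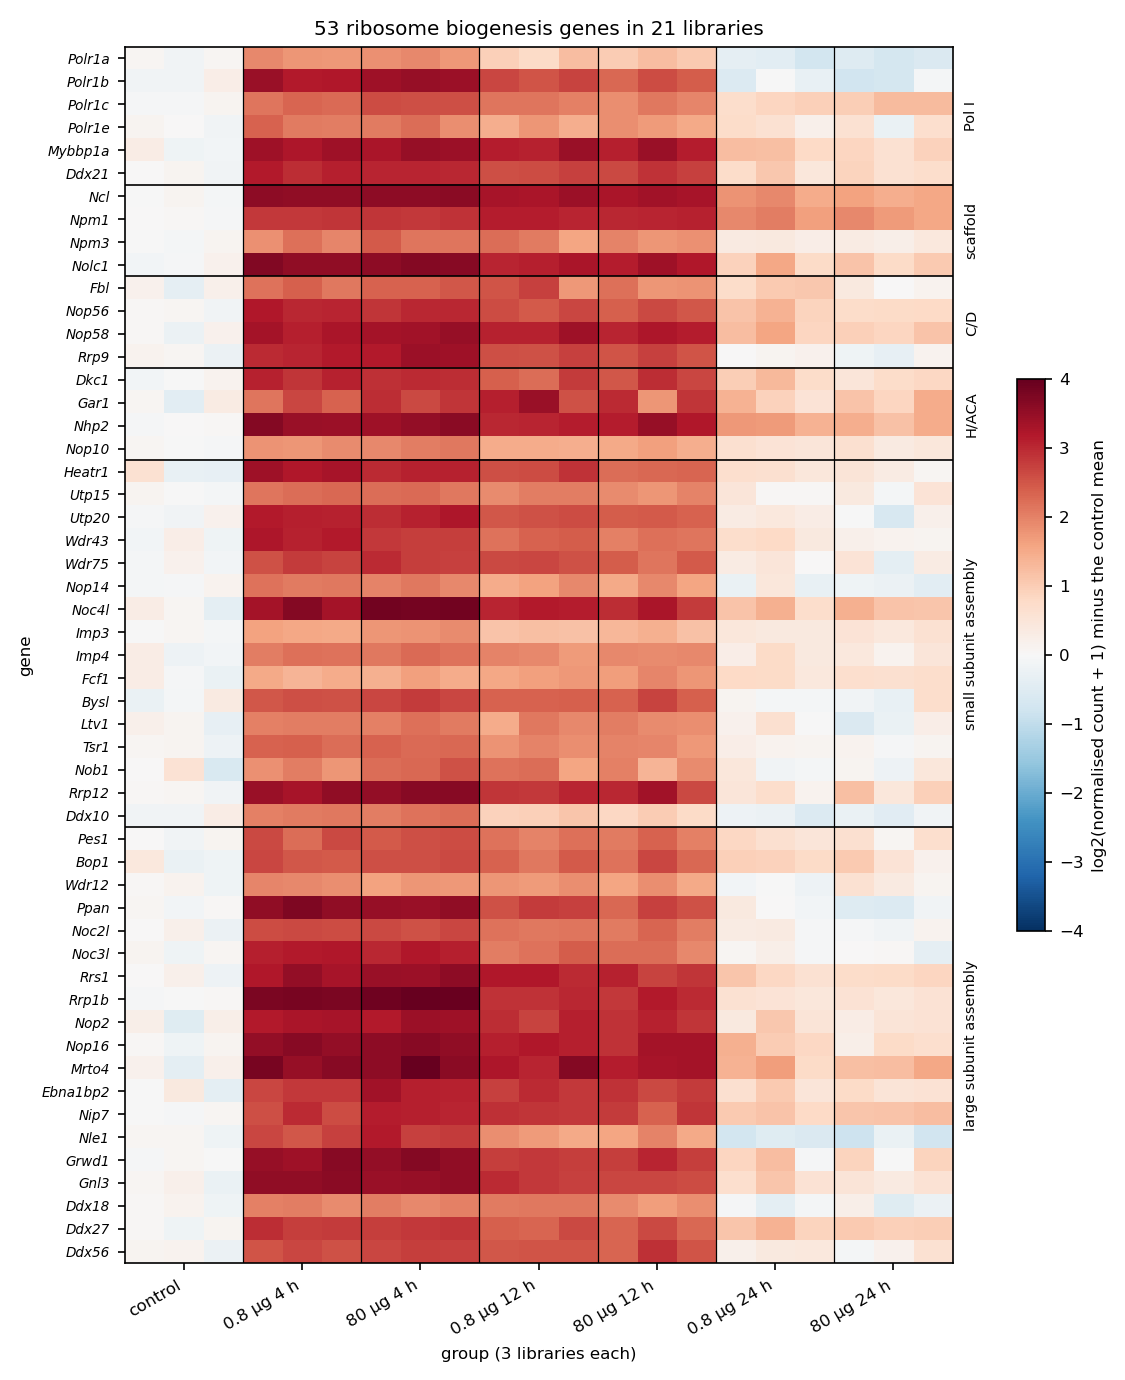
Heat map of the 53 genes (y axis, grouped by role) in the 21 libraries (x axis, 7 groups of 3); colour gives log2(normalised count + 1) of a library minus the mean of the control libraries. The 4 h and 12 h libraries are raised for every gene at both doses, and at 24 h all genes lie lower than at 12 h.

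Genes of the transcription step rose by a median log2 fold change of 2.66 at 0.8 µg and 2.81 at 80 µg at 4 h. Polr1c, a subunit shared by RNA polymerases I and III (17:46243920-46248054, minus strand, GENCODE coordinates on GRCm38), had normalised counts of 108, 109 and 123 in the controls, 505, 568 and 543 at 4 h after 0.8 µg and 697, 685 and 676 at 4 h after 80 µg. Every high dose library was above every low dose library at 4 h. Mybbp1a, a nucleolar Myb-binding protein tied to ribosomal DNA transcription and processing, had 341, 249 and 258 normalised counts in the controls, 2939, 2639 and 2923 at 4 h after 0.8 µg and 2722, 3174 and 2998 at 4 h after 80 µg, and there the doses overlapped. Polr1b, the second largest Pol I subunit, was 3.29 and 3.44 above control on the log2 scale at 4 h, Ddx21, a nucleolar RNA helicase, 3.07 and 3.03, Polr1e, an accessory Pol I subunit, 2.15 and 2.06, and Polr1a 1.81 and 1.83.

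The nucleolar scaffold genes rose by a median of 3.19 and 3.22. Ncl, nucleolin, an RNA-binding protein that is a main component of the nucleolus (1:86344719-86359400, minus strand), went from 3103, 3396 and 2999 normalised counts in the controls to 37936, 36827 and 37312 at 4 h after 0.8 µg and to 37524, 37667 and 38739 after 80 µg. Its log2 fold changes were 3.55 ± 0.09 (SE) and 3.58 ± 0.09, with overlapping doses. Npm1, nucleophosmin, a nucleolar chaperone of ribosomal proteins and histones (11:33152287-33163206, minus strand), had 1413, 1455 and 1356 normalised counts in the controls, 10018, 10049 and 10179 at 4 h after 0.8 µg and 10292, 9969 and 10428 after 80 µg. Unlike most of the group it was higher still at 12 h, at 12446, 12349 and 11706 after 0.8 µg and 11463, 11586 and 11919 after 80 µg. Nolc1, a chaperone of small nucleolar RNPs, rose by 3.58 and 3.61 at 4 h, and Npm3, a relative of nucleophosmin, by 2.00 and 2.24. Npm3 has a named pseudogene copy, which held 0.0403% as many counts as the gene.

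The 4 box C/D genes rose by a median of 3.06 and 3.13, and the 4 box H/ACA genes by 2.66 and 2.84. Fbl, fibrillarin, the methyltransferase of the box C/D particle (7:28169710-28179269, plus strand), had 67.0, 46.6 and 68.5 normalised counts in the controls, 272, 319 and 262 at 4 h after 0.8 µg and 308, 308 and 337 after 80 µg. Nop56, a core protein of the same particle (2:130274430-130279313, plus strand), went from 274, 281 and 237 to 2409, 2116 and 2186 after 0.8 µg and to 1931, 2144 and 2141 after 80 µg. Its exons overlap those of Idh3b on the other strand, whose counts over all libraries were 19.7% of those of Nop56, and the strand setting of the counting is not given in the sources used here. Nop58, the partner of Nop56, rose by 3.21 and 3.38 at 4 h, and Rrp9, the protein particular to the U3 particle, by 3.05 and 3.31.

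Among the box H/ACA genes Dkc1, dyskerin, the pseudouridine synthase, had 446, 475 and 534 normalised counts in the controls, 4063, 3490 and 4074 at 4 h after 0.8 µg and 3696, 3811 and 3787 after 80 µg. Nhp2, a core protein of the particle, went from 58.8, 61.9 and 62.8 to 790, 682 and 670 after 0.8 µg and 647, 712 and 754 after 80 µg. Both were far above every control library at both doses, and the doses overlapped. Rmnd5b, on the other strand of Nhp2, held 15.6% as many counts as Nhp2. The small core proteins Gar1 (2.33 and 2.73) and Nop10 (1.81 and 2.03) rose less than Dkc1 (2.98 and 2.94) and Nhp2 (3.52 and 3.50), a comparison of fold changes that was not tested.

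The 16 small subunit genes had the lowest role medians at 4 h, 2.26 and 2.27. Wdr43, a component of the complex that starts assembly on the nascent precursor RNA (17:71615895-71659031, plus strand), had 589, 752 and 565 normalised counts in the controls, 5962, 5379 and 5740 at 4 h after 0.8 µg and 4438, 4307 and 4251 after 80 µg. All 3 high dose libraries were below all 3 low dose libraries. Utp20, a large scaffold protein of the small subunit processome, went from 119, 112 and 140 to 1109, 1072 and 1034 after 0.8 µg and 950, 1040 and 1152 after 80 µg, with overlapping doses. Within the role the changes at 4 h spread from Fcf1 (1.44 and 1.5) and Imp3, a U3-associated protein (1.55 and 1.81), to Noc4l (3.39 and 3.79) and Rrp12 (3.40 and 3.59), both precursor assembly or export factors. Heatr1, of the same early complex as Wdr43, rose by 3.21 and 2.96, and Nob1, the endonuclease that makes the final cut of small subunit RNA, by 1.77 and 2.25.

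The 19 large subunit genes rose by a median of 2.84 and 3.11. Nop16 went from 66.0, 56.8 and 68.5 normalised counts in the controls to 735, 801 and 736 at 4 h after 0.8 µg and 770, 811 and 751 after 80 µg. Ppan went from 75.2, 64.9 and 72.8 to 839, 964 and 840 after 0.8 µg and 806, 787 and 835 after 80 µg, so for Ppan every high dose library was below every low dose library. This dose difference did not pass adjusted p, and the same separation was seen for 15.2% of all genes. Mrto4, which prepares the stalk of the large subunit, rose by 3.61 and 3.70, and Gnl3, nucleostemin, by 3.54 and 3.47. The PeBoW complex, needed for maturation of the large subunit, consists of Pes1, Bop1 and Wdr12. Pes1 rose by 2.52 and 2.54, Bop1 by 2.49 and 2.54, and Wdr12 by 1.89 and 1.69.

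From 4 to 12 h the group came down by a smaller step. Of the 53 genes 45 had their highest mean at 4 h and 8 at 12 h after 0.8 µg, 51 and 2 after 80 µg, and 0 at 24 h at either dose. The median log2 change from 4 to 12 h was -0.38 at 0.8 µg and -0.41 at 80 µg. By adjusted p and fold 1 gene, Ddx10, was called lower at 0.8 µg, where 7.98% of all genes tested were, and 2 genes, Ddx10 and Nle1, at 80 µg, where 9.1% were. By adjusted p alone 29 genes were lower and 1 higher at 0.8 µg, against 18.2% and 20.9% of all genes tested, and 36 lower and 1 higher at 80 µg, against 19.3% and 23.6%. The gene that rose was Npm1 at 0.8 µg (0.27 ± 0.09 SE, adjusted p = 0.0063, DESeq2) and Fcf1 at 80 µg (0.27 ± 0.11, adjusted p = 0.042). With edgeR the adjusted p was 0.0232 for Npm1 and 0.0756 for Fcf1, so the call for Fcf1 was lost. Ddx10 fell by 1.07 ± 0.11 and 1.28 ± 0.11 on the log2 scale, from 1721, 1810 and 1840 normalised counts at 4 h to 815, 819 and 925 at 12 h after 0.8 µg, and from 1769, 1922 and 2029 to 754, 872 and 729 after 80 µg. The count for 80 µg rested on the libraries: without replicate 2 of the 12 h group 6 genes were called lower, and for 0.8 µg 2 genes were called lower without replicate 1 or without replicate 3 of the 12 h group.

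The larger step came between 12 and 24 h. All 53 genes were lower at 24 h by adjusted p at both doses, against 19.1% and 19.8% of all genes tested. All 3 libraries of each gene were below those of 12 h at both doses (22.2% and 22.9% of all genes). In addition 50 genes at 0.8 µg and 51 at 80 µg were called lower by adjusted p and fold, against 9.48% and 10.5% of all genes tested. The median log2 changes were -1.91 and -1.96. The genes that fell by less than the fold threshold were Nop10 (-0.91), Imp3 (-0.77) and Fcf1 (-0.97) at 0.8 µg, and Polr1c (-0.80) and Imp3 (-0.78) at 80 µg. Since the sorted gate also went from Blue+Red+ to Blue-Red+, these values compare the sorted populations. The T cell and B cell marker sums rose over the same step.

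At 24 h the genes had not all come back to the control level. By adjusted p and fold 13 genes were called higher than control at 0.8 µg and 8 at 80 µg, against 11.5% and 12.3% of all genes tested, and no gene was called lower. By adjusted p alone 31 were higher and 3 lower at 0.8 µg, where 20.8% of all genes tested were higher and 15.2% lower, and 30 were higher and 2 lower at 80 µg, where 22.1% and 16.9% were. The median log2 fold change of the 53 genes was 0.56 and 0.46, against 0.00 over all genes tested at both doses.

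The 6 genes called higher at both doses at 24 h were Ncl, Npm1, Nhp2, Noc4l, Mrto4 and Nip7. Npm1 was at 5361, 5765 and 4401 normalised counts after 0.8 µg and 5351, 4594 and 4133 after 80 µg (log2 fold changes of 1.87 ± 0.09 SE and 1.73 ± 0.09). Ncl was at 10890, 12021 and 8792 after 0.8 µg and 9631, 8618 and 9216 after 80 µg (1.74 ± 0.09 and 1.53 ± 0.09). Every one of these libraries was above every control library, and for both genes the doses overlapped. Nhp2 was 1.62 and 1.37 above control on the log2 scale, Mrto4 1.31 and 1.32, Noc4l 1.07 and 1.18, and Nip7, a late factor of large subunit processing, 1.01 and 1.18.

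A further 7 genes, Mybbp1a, Nolc1, Nop56, Nop58, Dkc1, Nop16 and Ddx27, passed both thresholds at 0.8 µg and adjusted p alone at 80 µg, where their log2 fold changes were between 0.60 (Nop16) and 0.99 (Ddx27, Nolc1). Polr1c (0.85 and 1.19) and Gar1 (0.95 and 1.13) passed both thresholds at 80 µg and adjusted p alone at 0.8 µg. Falling on different sides of the fold threshold at the 2 doses does not show that the doses differ, and the direct comparison is given below. Another 13 genes passed adjusted p alone at both doses, among them Rrs1 (0.84 and 0.77), Ddx21 (0.78 and 0.72), Rrp1b (0.54 and 0.54) and Fcf1 (0.64 and 0.65). Fbl, Wdr43 and Heatr1 passed adjusted p at 0.8 µg and not at 80 µg, and Rrp12 and Wdr12 at 80 µg and not at 0.8 µg. A set of 17 genes passed at neither dose, including Ppan, Polr1b, Utp20, Bysl, Tsr1 and Nob1. Ppan, among the genes that rose most at 4 h, was back at 92.5, 71.8 and 66.1 normalised counts after 0.8 µg and 49.3, 48.6 and 63.5 after 80 µg.

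Polr1a and Nle1 were below control by adjusted p at both doses. Polr1a was at 200, 190 and 155 normalised counts after 0.8 µg and 178, 156 and 171 after 80 µg, against 270, 233 and 268 in the controls, so all 6 libraries were below all controls (-0.50 ± 0.14 SE, adjusted p = 0.0014, and -0.61 ± 0.14, adjusted p = 4.0e-05, DESeq2). Nle1, a factor that helps to mature the large subunit, was at 29.2, 35.4 and 33.0 after 0.8 µg and 27.4, 41.2 and 29.0 after 80 µg, against 52.6, 52.7 and 44.3 (-0.61 ± 0.25, adjusted p = 0.037, and -0.60 ± 0.24, adjusted p = 0.031). Ddx10 passed at 0.8 µg (-0.32 ± 0.12, adjusted p = 0.029), with 369, 366 and 292 normalised counts against 389, 383 and 522. Nle1 and Ddx10 were also the genes called lower from 4 to 12 h at 80 µg.

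The roles are set side by side as a description, and no difference between them was tested. Over all genes tested 11.5% and 12.3% were called higher at 24 h. The median log2 fold change at 24 h was 1.43 and 1.26 for the scaffold genes (3 and 2 of 4 called), 1.04 and 0.47 for the box C/D genes (2 and 0 of 4), and 0.99 and 0.90 for the box H/ACA genes (2 and 2 of 4). It was 0.65 and 0.56 for Pol I and ribosomal DNA transcription (1 and 1 of 6), 0.67 and 0.49 for large subunit assembly (4 and 2 of 19) and 0.32 and 0.18 for small subunit assembly (1 and 1 of 16). By adjusted p and fold the shares of the small subunit role, and of the large subunit role at 80 µg, were below those of all genes. By adjusted p alone 6 and 5 of the 16 small subunit genes were higher and 1 and 0 lower. Of the 19 large subunit genes 12 and 13 were higher and 1 and 1 lower. Over all genes tested 20.8% and 22.1% were higher by adjusted p alone.

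**Figure D3:**
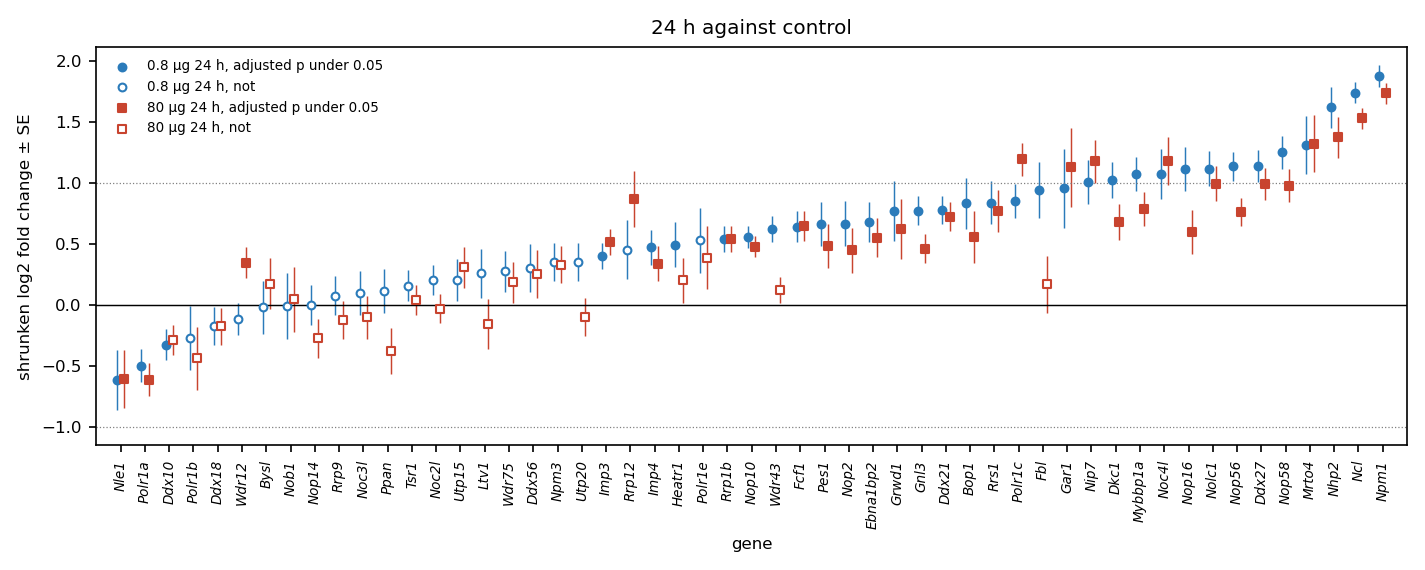
Shrunken log2 fold change against control at 24 h (y axis, with SE) of each of the 53 genes (x axis, ordered by the value at 0.8 µg); filled points passed an adjusted p of 0.05 and dotted lines mark the fold threshold of 1 in log2. Values run from -0.61 (Nle1) to 1.87 (Npm1) at 0.8 µg and from -0.61 (Polr1a) to 1.73 (Npm1) at 80 µg.

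The direct comparison of 80 µg with 0.8 µg asked whether antigen dose set the level of these genes. By adjusted p and fold 0 of the 53 genes were called at each of 4, 12 and 24 h, where 5.85%, 2.79% and 1.56% of all genes tested were called in either direction, and edgeR also called 0, where it called 4.21%, 2.13% and 1.12% of all genes. At an unadjusted p under 0.05 in DESeq2 9 genes were higher and 1 lower at 4 h, 0 higher and 6 lower at 12 h, and 2 higher and 13 lower at 24 h. Over all genes 7.26% were higher and 8.78% lower at this threshold at 4 h, 7.35% and 5.66% at 12 h, and 6.33% and 5.74% at 24 h. The median log2 difference was 0.06, -0.03 and -0.13 at 4, 12 and 24 h. At 24 h 38 of the 53 genes had a value below 0 and at 4 h 15 had. The 95% interval of the unshrunken difference lay within 1 log2 unit on either side of 0 for 52 of 53 genes at each time. The exceptions were Gar1 at 4 h (upper bound 1.04) and at 12 h (lower bound -1.08) and Fbl at 24 h (lower bound -1.22). Intervals within 1.5-fold were reached by 46 genes at 4 h, 49 at 12 h and 35 at 24 h, so at 24 h differences of that size were not excluded for the other 18 genes.

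**Figure D4:**
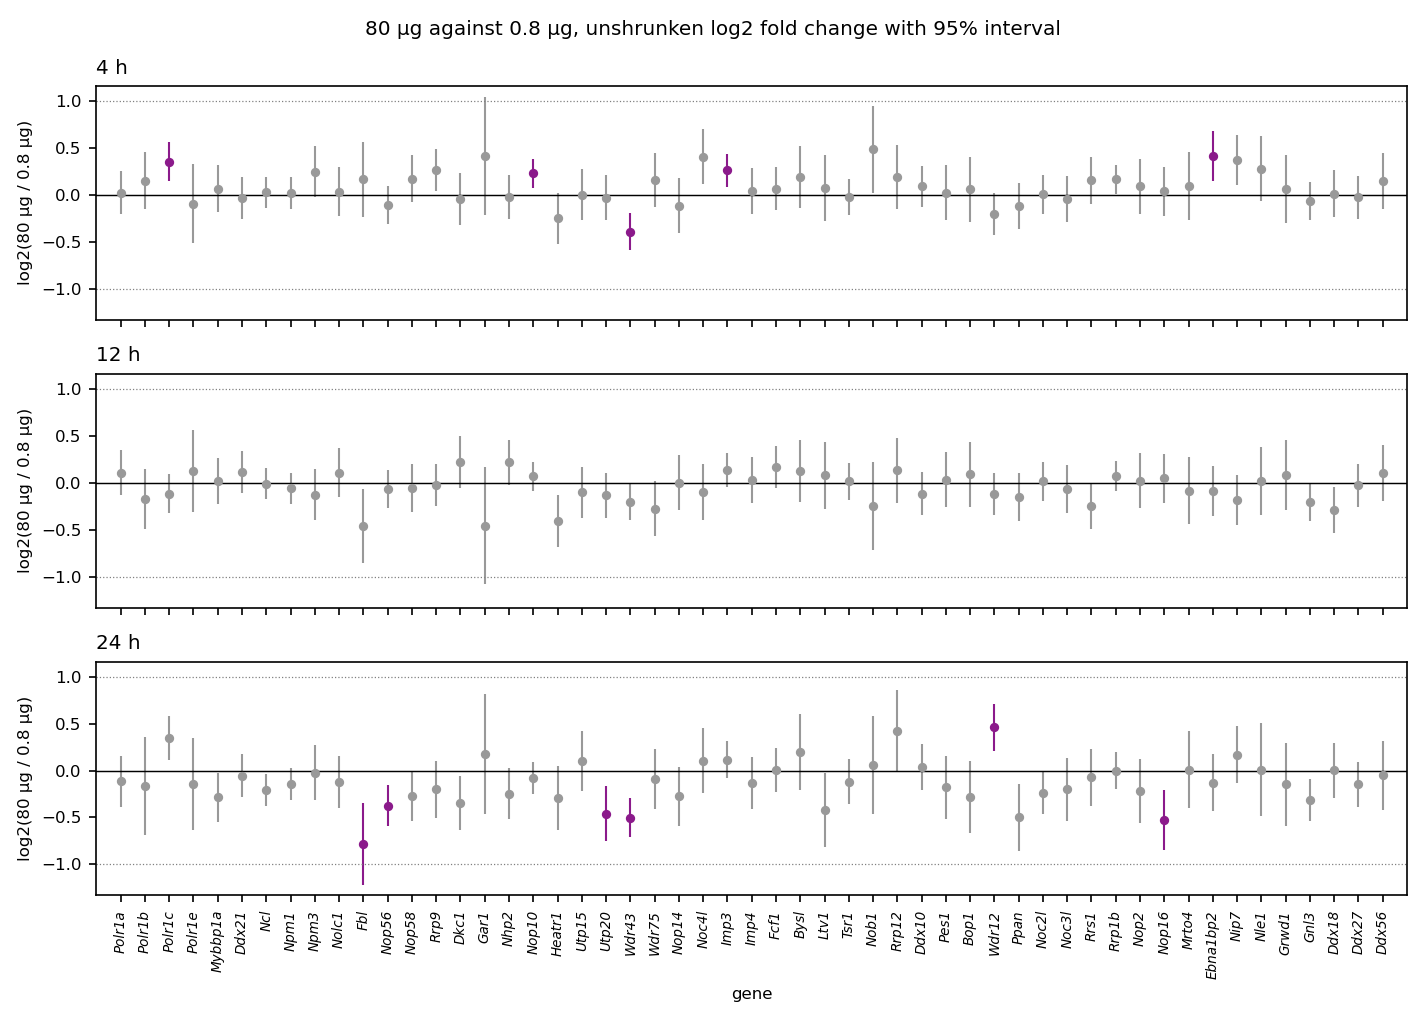
Unshrunken log2 difference between 80 and 0.8 µg (y axis) with its 95% interval for each of the 53 genes (x axis) at 4, 12 and 24 h; dotted lines mark 1 log2 unit in each direction. The medians are 0.06, -0.03 and -0.13, and most intervals lie within the dotted lines.

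By adjusted p alone single genes differed between doses. At 4 h 4 genes were higher and 1 lower at 80 µg, against 5.81% and 6.19% of all genes tested. At 12 h 0 were, against 3.67% higher and 2.6% lower, and at 24 h 1 was higher and 5 lower, against 3.73% and 2.2%. With edgeR the counts were 1 higher and 1 lower at 4 h (Ebna1bp2 and Wdr43), 0 and 0 at 12 h, and 1 higher and 2 lower at 24 h (Wdr12, and Fbl and Wdr43). Over all genes edgeR gave 4.05% and 3.65% at 4 h, 2.64% and 1.46% at 12 h, and 2.25% and 1.03% at 24 h. The 24 h libraries held 3688959 to 6244279 counts at 80 µg and 3384571 to 4114620 at 0.8 µg, with overlapping ranges, and those of 80 µg had the highest mean of all groups. Their summed B cell markers were higher, at 384 to 413 against 294 to 353 CPM. Of the 6 B cell markers tested Ighm was higher at 80 µg by adjusted p (0.54), and the median difference of the 6 was -0.83, down to -1.39 for Ms4a1. At 4 h the summed CD4+ T cell markers were lower at 80 µg, at 2152 to 2219 against 2343 to 2496 CPM. Of these 10 markers 4 were called lower by adjusted p and fold, down to -1.93 for Cd4. By adjusted p alone 5 were lower and 2 higher. Of 6 myeloid markers tested 1 was called lower, and of 4 CD8 T and NK markers 1 higher. The part of depth, of B cells and of these other markers in the results was not tested.

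Wdr43 was lower at the high dose at 4 h, by -0.39 ± 0.10 (SE, adjusted p = 0.0013, DESeq2), and at 24 h, by -0.50 ± 0.11 (adjusted p = 0.00018). At 24 h its normalised counts were 1036, 1088 and 824 after 0.8 µg and 720, 690 and 677 after 80 µg, without overlap, and the controls had 589, 752 and 565. At 12 h they were 2819, 3259 and 3410 against 2562, 2875 and 2794, where the doses overlapped. Both differences passed adjusted p in all 13 alternative settings and left-out libraries tried at each time. At 24 h Wdr43 was 0.62 ± 0.11 above control at 0.8 µg (adjusted p = 7.1e-08) and 0.12 ± 0.11 at 80 µg (adjusted p = 0.38). A further annotated gene overlaps its exons on the other strand, and that gene was not in the count table. The other genes of its early complex did not pass the dose test at 24 h, with -0.29 for Heatr1, -0.09 for Wdr75 and 0.10 for Utp15.

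Wdr12 was the gene that was higher at the high dose at 24 h (1:60069785-60098645, minus strand). It had 365, 311 and 260 normalised counts after 80 µg and 225, 240 and 210 after 0.8 µg, without overlap, against 246, 264 and 216 in the controls (0.46 ± 0.13 SE, adjusted p = 0.0092, DESeq2). This call was lost without replicate 3 of the 0.8 µg group or replicate 1 of the 80 µg group, and in a fit on the 6 libraries alone, with an adjusted p of 0.126 at most. At 4 h the order was the opposite, with 929, 914 and 878 after 0.8 µg and 730, 819 and 812 after 80 µg, and the shrunken difference of -0.20 did not pass. Its partners in the PeBoW complex had values of the other sign at 24 h, -0.18 for Pes1 and -0.28 for Bop1, and neither passed. Carf, on the other strand of Wdr12, held 4.55% as many counts as Wdr12.

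Fbl and Nop56, of the box C/D particle, were lower at the high dose at 24 h. Fbl had 78.9, 61.1 and 65.9 normalised counts after 80 µg and 99.3, 125 and 127 after 0.8 µg (-0.77 ± 0.22 SE, adjusted p = 0.013, DESeq2), and the high dose libraries lay next to the controls at 67.0, 46.6 and 68.5. Nop56 had 443, 447 and 462 against 578, 687 and 486 (-0.37 ± 0.11, adjusted p = 0.018), and all libraries stayed above the controls. The other box C/D genes had smaller differences that did not pass, -0.27 for Nop58 and -0.20 for Rrp9. Of the 13 alternatives, which included the left-out libraries, 9 kept the call for Fbl and 6 that for Nop56. Fbl lost it without replicate 2 or 3 of either dose, with adjusted p up to 0.0887. Nop56 lost it without any of the libraries but replicate 3 of 0.8 µg, with edgeR and in the fit on 6 libraries, with adjusted p up to 0.285.

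Utp20 and Nop16 completed the genes lower at 24 h. Nop16 had 75.6, 109 and 102 normalised counts after 80 µg and 173, 129 and 115 after 0.8 µg (-0.52 ± 0.16 SE, adjusted p = 0.028, DESeq2). Utp20 had 122, 78.0 and 142 against 155, 164 and 152 (-0.46 ± 0.15, adjusted p = 0.041). In both genes the high dose libraries were below all of the low dose libraries. Of the 13 alternatives 8 kept the call for Nop16, which ended without replicate 1 of 0.8 µg or replicate 1 or 3 of 80 µg, with edgeR and in the fit on 6 libraries (adjusted p up to 0.358). For Utp20 5 kept the call, which ended without any library but replicate 3 of 80 µg, with edgeR, with TMM factors and in the fit on 6 libraries (adjusted p up to 0.446).

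The genes higher at the high dose at 4 h were Ebna1bp2, Polr1c, Imp3 and Nop10. Ebna1bp2, a large subunit factor (4:118620799-118627776, plus strand), had 1147, 969 and 953 normalised counts after 80 µg against 717, 794 and 794 after 0.8 µg and 111, 148 and 84.2 in the controls (0.41 ± 0.14 SE, adjusted p = 0.025, DESeq2). Polr1c differed by 0.35 ± 0.11 (adjusted p = 0.012), Imp3 by 0.26 ± 0.09 (adjusted p = 0.036) and Nop10 by 0.23 ± 0.08 (adjusted p = 0.038). Each is below 1.5-fold (0.58 in log2). Of the 13 alternatives 9 kept the call for Ebna1bp2 and for Polr1c, 6 that for Nop10 and 4 that for Imp3. Leaving out a single library ended each of them: any of the low dose libraries or replicate 1 of 80 µg for Ebna1bp2, replicate 1 or 3 of 0.8 µg or replicate 1 of 80 µg for Polr1c, replicate 1 or 2 of 0.8 µg or replicate 2 or 3 of 80 µg for Nop10, and any of the 6 for Imp3. The calls for Polr1c, Nop10 and Imp3 also ended with edgeR. Those for Nop10 and Imp3 ended as well with a stricter filter (at least 10 counts in at least 3 samples) and with a replicate block. Over the alternatives the adjusted p reached 0.213, 0.103, 0.231 and 0.22 at most.

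**Figure D5:**
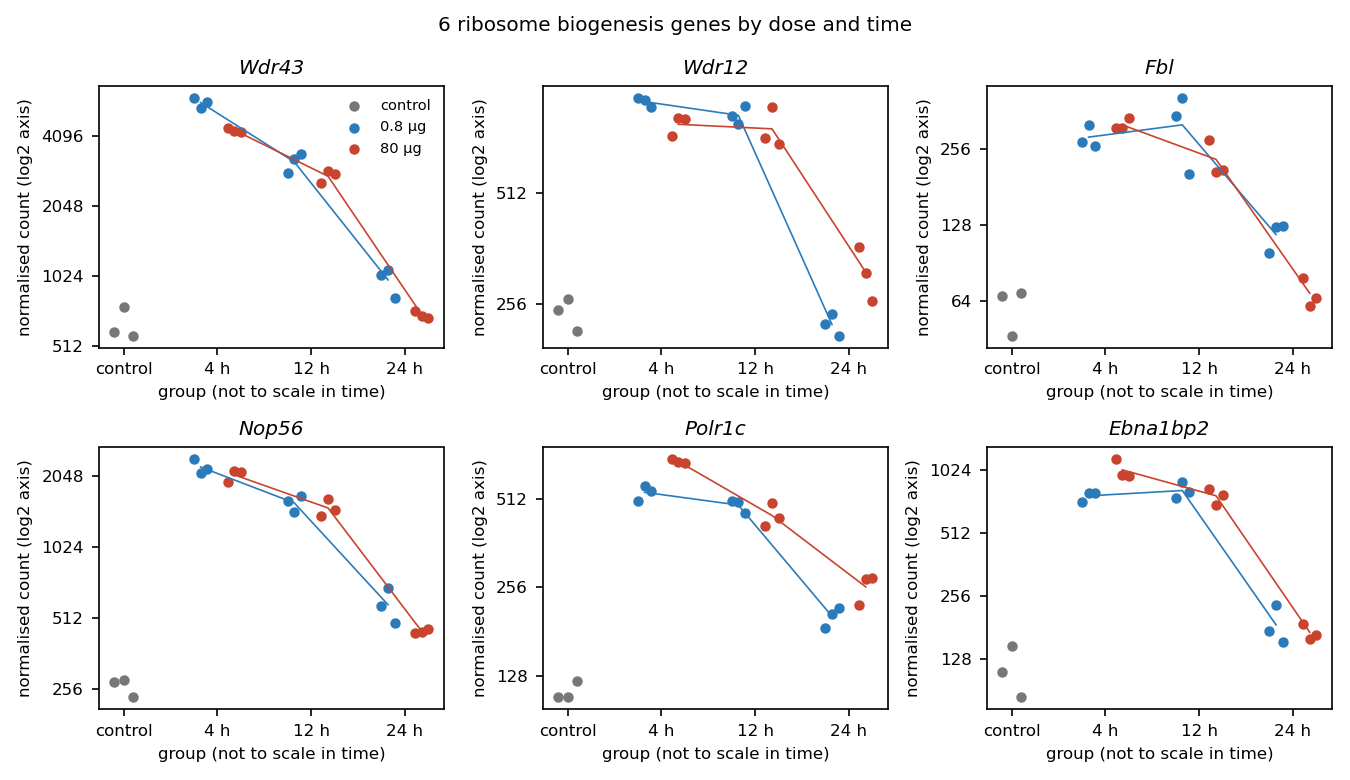
Normalised counts (y axis, log2 axis) of Wdr43, Wdr12, Fbl, Nop56, Polr1c and Ebna1bp2 in the control libraries and at 4, 12 and 24 h (x axis, not to scale in time) after 0.8 and 80 µg; points are libraries and lines join the group means. Wdr43 lies lower after 80 µg at 4 and 24 h, Wdr12 changes order between 4 and 24 h, and Fbl after 80 µg is back at the control libraries by 24 h.

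Whether the dose difference itself changed over time was tested by a likelihood ratio test of the dose by time interaction on the 18 immunised libraries. It passed an adjusted p of 0.05 for 4 of the 53 genes, where 10.4% of all genes tested passed: Wdr12 (adjusted p = 0.00351, DESeq2), Polr1c (adjusted p = 0.0296), Ebna1bp2 (adjusted p = 0.0437) and Fbl (adjusted p = 0.0484). The dose differences at 4, 12 and 24 h were -0.20, -0.12 and 0.46 for Wdr12, 0.35, -0.12 and 0.34 for Polr1c, 0.41, -0.09 and -0.13 for Ebna1bp2 and 0.16, -0.46 and -0.77 for Fbl. Wdr12 passed in all 23 alternatives, with an adjusted p of 0.0412 at most. The other 3 were lost in more than a few: Polr1c passed in 10, Fbl in 9 and Ebna1bp2 in 8 of the 23. With single libraries left out between 1 and 8 of the 53 genes passed. The count moved by over 1.5 times except without replicate 2 of the 4 h or replicate 1 of the 24 h group at 0.8 µg, replicate 3 of its 12 h group, or replicate 1 of the 12 h or of the 24 h group at 80 µg.

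Other genes of the same pathway, from lists written beside the 53, were counted in the same way. At 4 h 34 and 35 of 42 other small subunit factors were called higher than control at 0.8 and 80 µg, as were 44 and 45 of 49 other large subunit factors, 11 and 11 of 12 snoRNP assembly factors, 12 and 13 of 15 genes of the RNA exosome and precursor decay and 8 and 8 of 13 other Pol I factors, where 17.3% and 18.4% of all genes tested were. At 24 h these counts, in the same order of lists, were 1 and 1, 3 and 0, 1 and 2, 6 and 5, and 0 and 0, against 11.5% and 12.3% of all genes tested. By adjusted p and fold the shares of the small subunit, large subunit and Pol I lists were then below those of all genes, and that of the exosome list above them. By adjusted p alone, in the same order of lists, 21 and 16, 17 and 14, 9 and 9, 8 and 8, and 4 and 3 were higher at 24 h. Those lower were 1 and 1, 4 and 6, 0 and 0, 1 and 0, and 0 and 2. Over all genes tested 20.8% and 22.1% were higher and 15.2% and 16.9% lower. Between doses 0 genes of these lists were called by adjusted p and fold at any time. Of 35 translation initiation and elongation factors 24 and 27 were called higher at 4 h, 26 and 27 at 12 h, where 17.2% and 17.8% of all genes tested were, and 7 and 8 at 24 h. Of the genes in the cytosolic ribosomal protein list 2 and 2 were at 4 h, 6 and 5 at 12 h and 1 and 1 at 24 h. The largest log2 fold changes in that list were those of relatives by name. They were Rpl7l1 at 4 h (2.05 and 2.21) and Rps27l at 12 h (2.75 and 2.75) and 24 h (1.78 and 2.00).

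Of the 49 other large subunit factors 4 were lower and 0 higher at 80 µg at 24 h by adjusted p alone, against 2.2% and 3.73% of all genes tested. The largest value in the other direction was that of Urb1 (0.68), which did not pass. The 3 factors of this list with the largest dose differences at 24 h were among those lower. They were Mdn1, the AAA ATPase that strips factors from the large subunit precursor (-0.74 ± 0.11 SE, adjusted p = 1.63e-09, DESeq2), Dhx33, an RNA helicase (-0.76, adjusted p = 0.0066), and Ccdc86 (-0.72, adjusted p = 0.0021). Polr1d, which pairs with Polr1c in the polymerase, was 0.48 higher at 80 µg at 4 h (adjusted p = 0.0029) and 0.37 higher at 24 h (adjusted p = 0.071), beside 0.35 and 0.34 for Polr1c. The other small subunit factor with the largest difference at 24 h, Dimt1, was at 0.62 with an adjusted p of 0.63.

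Myc was measured in the same libraries. Its normalised counts were 53.8 ± 13.8 (SD, n = 3) in the controls, 918 ± 135 and 1188 ± 69.1 at 4 h after 0.8 and 80 µg, 187 ± 68.6 and 194 ± 41.5 at 12 h, and 34.7 ± 6.54 and 35.1 ± 9.65 at 24 h. Against control its log2 fold changes were 4.06 and 4.43 at 4 h, 1.80 and 1.84 at 12 h, and -0.59 (adjusted p = 0.063, DESeq2) and -0.56 (adjusted p = 0.069) at 24 h. Mxd4, a partner of Max that is known to oppose Myc, fell with antigen, with 578 ± 39.3 normalised counts in the controls, 8.39 and 2.73 at 4 h, 6.59 and 3.92 at 12 h and 666 ± 242 and 370 ± 47.8 at 24 h. At 24 h Mxd4 was lower at 80 µg (-0.84, adjusted p = 0.0044). Other partners of Max that are known to oppose Myc did not share one direction at 4 h. Mnt was 1.44 and 1.54 above control and Mga 0.87 and 0.78 above it, while Mxi1 was at -2.94 and -2.89. Mxd1 was at -1.39 (adjusted p = 0.00044) at 0.8 µg and 0.35 (adjusted p = 0.40) at 80 µg. Between doses Mxd1 was called higher at 80 µg at 4 h (1.74) and at 12 h (1.27). Mxd3 had 4.36 ± 5.12 normalised counts in the controls, and 84.8 ± 11.1 and 161 ± 12.3 at 24 h after 0.8 and 80 µg. It was called higher than control there (3.33 and 4.11). Its dose difference at 24 h, 0.77, had the opposite sign to that of Mxd4 and did not pass adjusted p.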

How the data were processed

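Total RNA of sorted CD4+ T cells was made into 21 QuantSeq 3′ mRNA libraries, which count one tag near the end of each transcript. Per the labels and the study's methods, the authors aligned the reads with STAR 2.5.2a to mm10, counted them per gene with HTSeq and used DESeq2. They deposited raw counts for 47643 genes, used here for all tests, and a log2-scale table (DESeq2's rlog) of 15249 named genes, which the authors normalised and which was used here for gene names alone. Both deposited tables hold 21 libraries in 7 groups of 3.

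Counts were analysed with R 4.3.3 and DESeq2 1.42.0 following the study's design: genes with at least 10 reads over all samples (15300), one coefficient per group over all 21 samples, Wald tests with normal-prior shrunken log2 fold changes, and Benjamini-Hochberg adjustment over all genes tested. A gene was called at an adjusted p under 0.05 and an absolute log2 fold change above 1. The interaction was a likelihood ratio test on 18 immunised libraries. Normalised counts are counts divided by DESeq2's size factors, so they are relative to the other RNA of the library. Total counts of 2352800 to 6244279 set the counting precision. Alternatives were edgeR 4.0.16, TMM factors, other filters, unshrunken fold changes, adjusted p alone, a replicate block, a fit on the 6 libraries compared, and each library left out. The scripts were tested on simulated data. No 2 replicates were alike within sampling noise. Replicate 3 of 0.8 µg at 12 h stood furthest from its group. Its chi-square over degrees of freedom was 14.8 and 14.4, against 3.35 between replicates 1 and 2. Gm42418 took 25.7% of its counts, against 17.0 and 18.2% in replicates 1 and 2. Sequences come from RefSeq (GRCm38.p6) and gene positions from GENCODE M21; exons of 22 of the 53 genes overlap a gene on the opposite strand and those of 5 a gene on the same strand.

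The members and the lists were chosen with earlier results of these data known. Members described in full were, in each role, those with the largest dose difference at the time with most dose calls (at a tie of 0 calls, the time with most genes passing adjusted p alone, 24 h), those opposite in direction to most members, and those with an interaction. Other pathway genes were named by the same dose difference, up to 3 per list, plus Myc, Mxd4 and other partners of Max.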

Additional observations from a re-analysis of the deposited data

Results flagged for a closer look

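The dose difference of 4 of the 53 genes changed between 4, 12 and 24 h by the likelihood ratio test of the interaction (DESeq2, adjusted over all genes tested), while 10.4% of all genes tested passed the same test. Wdr12 had an adjusted p of 0.00351, and its difference between 80 and 0.8 µg went from -0.20 at 4 h to 0.46 at 24 h on the log2 scale. Polr1c had an adjusted p of 0.0296, with 0.35 at 4 h, -0.12 at 12 h and 0.34 at 24 h. Ebna1bp2 had an adjusted p of 0.0437, with 0.41 at 4 h and -0.13 at 24 h. Fbl had an adjusted p of 0.0484, with 0.16 at 4 h and -0.77 at 24 h. With edgeR the adjusted p was 0.0158 for Wdr12, 0.0361 for Fbl, 0.0946 for Ebna1bp2 and 0.153 for Polr1c. Wdr12 passed in all 23 alternatives, Polr1c in 10, Fbl in 9 and Ebna1bp2 in 8.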

How the results depend on the processing

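Among the single-gene fold changes that passed in the main fit, no direction turned over in any alternative run. Fold changes that did not pass there were not compared for direction. Without the fold threshold, by adjusted p alone, the dose comparison gave 4 genes higher and 1 lower at 4 h and 1 higher and 5 lower at 24 h. The same setting gave 31 higher and 3 lower (0.8 µg) and 30 higher and 2 lower (80 µg) than control at 24 h, and 1 higher and 29 lower (0.8 µg) and 1 higher and 36 lower (80 µg) at 12 h against 4 h. The interaction was found for 2 genes with edgeR and for 2 with the replicate block. Same-numbered libraries deviated together in 12 of 63 pairs (correlation over 0.1, range -0.204 to 0.211). Those numbered 3 did so in every pair among the 4 h and 12 h groups (0.122 to 0.211). Between these groups and the 80 µg group at 24 h their correlations were negative (-0.204 to -0.147). The numbers therefore did not pair the samples throughout, and a shared deviation of the libraries numbered 3 at 4 and 12 h was not excluded. With the replicate block 345 of 349 single-gene calls were kept. Those lost were Nop10 and Imp3 between doses at 4 h and Fbl and Ebna1bp2 in the interaction. With edgeR 341 of 349 were kept and with TMM factors 348 of 349, and TMM moved the median of all genes by at most 0.0329.

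With each library left out in turn, the number of genes called ranged from 10 to 15 (0.8 µg) and 7 to 12 (80 µg) higher than control at 24 h, from 51 to 53 and 52 to 53 at 12 h, from 49 to 51 and 50 to 51 lower at 24 h than at 12 h, and from 1 to 2 and 2 to 6 lower at 12 h than at 4 h. The interaction count ranged from 1 to 8, the highest without replicate 3 of 0.8 µg at 24 h. Without Gm42418, mt-Rnr1 and mt-Rnr2 in the library total the share of the 53 genes was 0.613% in the controls, 4.18, 3.78 and 1.24% at 4, 12 and 24 h after 0.8 µg, and 4.17, 3.70 and 1.05% after 80 µg. The causes of these shifts were not tested. Depth sets the counting error of genes with few counts, and its part in the standard errors was not tested: the SE was 0.25 for Nle1 at 24 h against control at 0.8 µg and 0.31 for Gar1, with more counts, between doses at 4 h.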
